A study of Homo sapiens with 12 samples.

Results

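The stretch of chromosome 11 that holds CCND1, FGF19 and FGF4 was described from the H3K27ac and HSF1 peak lists of Huh7 cells, an established hepatocellular carcinoma line. The 3 genes and the interval were chosen because H3K27ac peaks over part of it, from 69489903 to 69524308 on hg19, ranked higher among the H3K27ac clusters of the siHSF1 list than among those of the siNC list. The H3K27ac heights and lengths given here are therefore a description of the values behind that choice, with no test. Of 41082 siNC peaks and 45586 siHSF1 peaks, 17 and 21 lay in the chosen interval, chromosome 11, 69430000 to 69650000 on hg19. Of 7147 HSF1 CUT&Tag peaks, 2 lay within 50 kb of the bodies of the 3 genes on hg38, and of 1299 H3K27ac CUT&Tag peaks, 0 did.

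The study asked how HSF1, the master regulator of the heat shock response, acts on enhancers in liver cancer cells. H3K27ac ChIP-seq compared Huh7 cells 48 h after transfection with a negative control siRNA (siNC) or an siRNA against HSF1 (siHSF1), both delivered with Lipofectamine RNAiMAX, each with an input library of its own. CUT&Tag, in which an antibody brings a transposase to chromatin, mapped HSF1 and H3K27ac in untreated Huh7 cells. The labels give the genotype of all cells as WT and do not say which siRNA against HSF1 was used for ChIP-seq. With 1 library per condition, differences could not be set against replicate error, and p-values are not given. The level of HSF1 and the liver markers of these cells were not analysed here, since expression tables were not used.

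H3K27ac, acetylation of lysine 27 of histone H3, marks active enhancers and promoters, and long clusters of such peaks are called super-enhancers. CCND1 encodes cyclin D1, which activates CDK4 and CDK6 and so starts the phosphorylation of RB that lets a cell leave G1. FGF19 encodes a hormone that the gut releases after a meal and that acts on hepatocytes through FGFR4 and the co-receptor beta-klotho to repress bile acid synthesis, while FGF4 encodes a growth factor of early embryos. The genes lie close together in band 11q13, which is amplified in some liver cancers.

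The ChIP-seq lists are on hg19, for which no genome or annotation was used, so their peaks are given by position only and are not assigned to a gene. The CUT&Tag lists are on hg38, and positions on one build are not set beside positions on the other. On hg38 (GENCODE release 44), CCND1 (ENSG00000110092.4) lies on the plus strand of chromosome 11 from 69641156 to 69654474, FGF19 (ENSG00000162344.4) on the minus strand from 69698238 to 69704022, and FGF4 (ENSG00000075388.4) on the minus strand from 69771022 to 69775341.

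The sequences around the summits of both HSF1 peaks near these genes are shown because they are the binding data closest to CCND1 and FGF19. Each run covers the summit and 100 bp on either side on the plus strand of hg38, chr11:69654741-69654941 for the peak just past the end of CCND1 and chr11:69706034-69706234 for the peak upstream of FGF19. They are in lower case throughout, because neither holds a base that matched a motif searched.
HSF1 peak past the end of CCND1: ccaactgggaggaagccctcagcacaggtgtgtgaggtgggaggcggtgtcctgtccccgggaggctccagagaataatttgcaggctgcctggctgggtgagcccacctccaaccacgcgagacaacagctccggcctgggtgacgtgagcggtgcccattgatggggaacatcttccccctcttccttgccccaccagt
HSF1 peak upstream of FGF19: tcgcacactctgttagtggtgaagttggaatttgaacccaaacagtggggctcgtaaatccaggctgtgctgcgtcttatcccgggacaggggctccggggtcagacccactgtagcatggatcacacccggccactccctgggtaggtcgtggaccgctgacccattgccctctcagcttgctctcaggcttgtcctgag

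The motifs searched on both strands were the heat shock element, the site HSF1 binds, written GAANNTTCNNGAA or TTCNNGAANNTTC of whose 9 fixed bases 1 was allowed to differ, and CCAAT, the box bound by NF-Y. No match to either stood in these 201 bp windows. Among all 7147 HSF1 windows of that length, 2.42% held the heat shock element (95% Wilson interval 2.09% to 2.80%) and 30.7% held CCAAT (29.7% to 31.8%), so most HSF1 windows of this library also lacked both. The GC content was 63.2% at the peak past CCND1 and 58.7% at the peak upstream of FGF19, against a median of 63.2% over all windows.

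The HSF1 peak past the end of CCND1 ran from 69654748 to 69654974 (227 bp), with a pileup of 17 extended tags over the summit and a fold enrichment of 6.25. Fold enrichment divides the pileup by the local background, after 1 is added to each. It began 274 bp beyond the annotated end of CCND1, 13.7 kb from its start at the summit, within an intron of LTO1 (ENSG00000149716.13), a gene on the opposite strand that encodes a maturation factor of the ribosome recycling protein ABCE1. In fold enrichment, 33.0% of all HSF1 peaks were lower, and in pileup 71.2% were lower, so the peak stood above the middle of the list in tags and below it in enrichment.

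The peak upstream of FGF19 ran from 69706004 to 69706497 (494 bp), where no gene is annotated, and its summit lay 2.11 kb upstream of the FGF19 start. Its pileup was 13, the median of all HSF1 peaks, and its fold enrichment was 5.26, with 10.0% of HSF1 peaks lower. Both peaks were thus below the median HSF1 fold enrichment of 6.85. No HSF1 peak overlapped 1 kb on either side of the start of CCND1, FGF19 or FGF4.

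FGF4 had no HSF1 peak within 50 kb of its body, and the nearest HSF1 summit was 69.2 kb from its start. The other genes annotated in these windows were FGF3 (ENSG00000186895.4), a further fibroblast growth factor gene, and the processed pseudogene DNAJB6P5, and neither body held an HSF1 peak. Just outside the windows, which run together from 69591156 to 69825341, the nearest HSF1 peaks were 93.6 kb below (69497322 to 69497570, fold enrichment 4.70) and 145.0 kb above (69970335 to 69970538, fold enrichment 5.85). The map of HSF1 peaks shows both peaks on the CCND1 and FGF19 side and an empty stretch around FGF4. The list held 2.31 HSF1 peaks per Mb of genome. At that density 0.542 would be expected over the joined windows, so a window of 1 gene without a peak is not unusual.

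**Figure D1:**
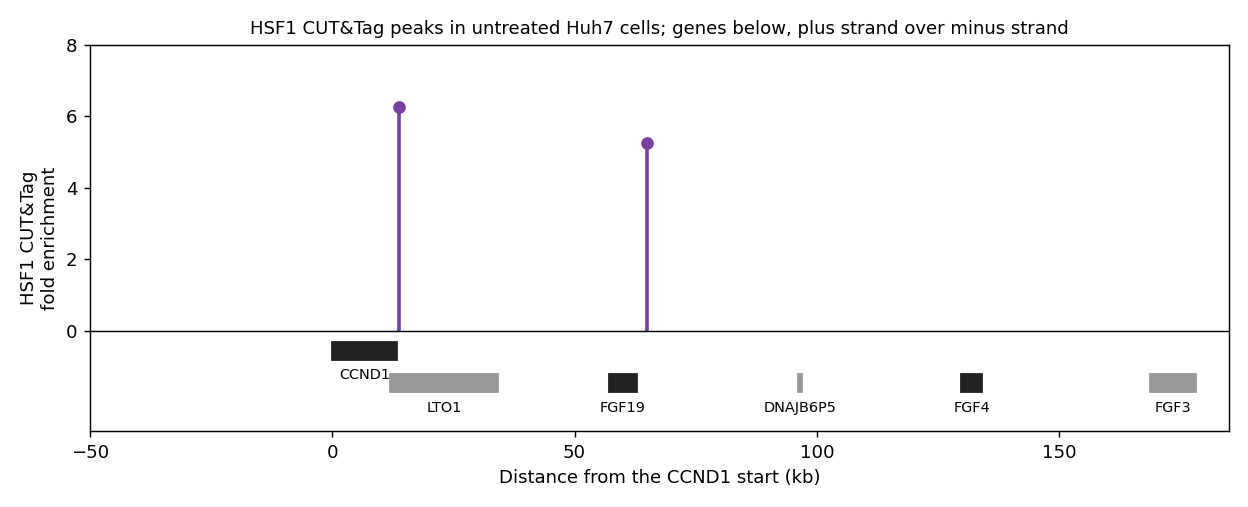
HSF1 CUT&Tag peaks in the hg38 windows of CCND1, FGF19 and FGF4, plotted by the distance of the summit from the CCND1 start (kb, x axis) and by fold enrichment (y axis), with annotated genes below, the plus strand over the minus strand, members in black and other genes in grey. The peak at fold enrichment 6.25 stands just past CCND1, the peak at 5.26 just to the right of FGF19, and none stands near FGF4.

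The H3K27ac CUT&Tag list had no peak in any of the 3 windows. At its density over the genome, 0.0985 peaks would be expected in the 3 together. The nearest H3K27ac CUT&Tag summits were 730, 667 and 596 kb from the starts of CCND1, FGF19 and FGF4. Depth limits this absence: 896393 of 15737890 tags (5.70%) were left in that library after duplicate removal, against 2712212 of 3604911 (75.2%) in the HSF1 library, and the list held H3K27ac peaks at 2.75% of protein-coding gene starts.

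H3K27ac ChIP-seq did give peaks in the hg19 interval, and in both conditions they fell into a pair of clusters, with 17.2 kb between them that held no peak of either list. The first cluster ran from 69447476 to 69470592 (23.1 kb) and held 7 siNC peaks and 7 siHSF1 peaks. The second ran from 69487827 to 69524308 (36.5 kb) and held 10 siNC peaks and 14 siHSF1 peaks, of which 9 and 14 lay in the stretch 69489903 to 69524308. The remaining 125.7 kb up to 69650000 held no peak in either list.

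**Figure D2:**
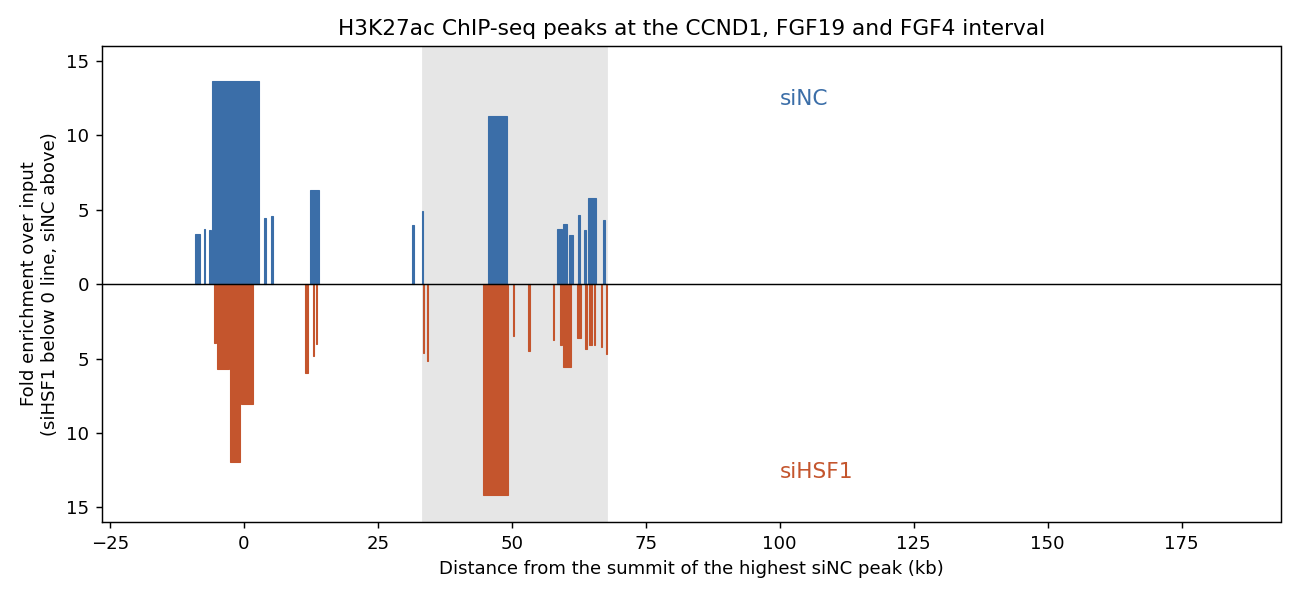
H3K27ac ChIP-seq peaks of the hg19 interval, plotted by distance from the summit of the highest siNC peak (kb, x axis) and fold enrichment over input (y axis, siNC upward in blue and siHSF1 downward in orange, bar width to scale with peak length), with the stretch that guided the choice of the locus in grey. Both lists show 2 clusters, each led by a tall peak, and nothing to the right of the grey stretch.

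Peaks covered 22.3 kb in siNC and 17.9 kb in siHSF1, a ratio of 0.806, against 0.577 over the whole lists. The lists were called with fragment lengths of 297 bp (siNC) and 175 bp (siHSF1), which are also their shortest peaks, and the median peak was 575 bp and 334 bp long. The clusters differed in this respect. Peaks of the first covered 12.7 kb in siNC and 7.55 kb in siHSF1 (ratio 0.593), close to the ratio of the whole lists, whereas those of the second covered 9.53 kb and 10.4 kb (ratio 1.09).

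Fold enrichment at the locus ranged from 3.29 to 13.6 in siNC (median 4.28) and from 3.49 to 14.1 in siHSF1 (median 4.50), below the list medians of 5.12 and 5.43. Pileups ranged from 9 to 39 and from 7 to 30 extended tags. The middle peak of the locus was thus lower in fold enrichment than the middle peak of its list, while single peaks stood above it in both clusters.

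In the first cluster, the siNC list had its highest peak of the locus, 69450634 to 69459442, a single peak of 8809 bp with a pileup of 39 and a fold enrichment of 13.6. Of all siNC peaks, 97.6% were lower in fold enrichment and 99.6% were shorter. The siHSF1 list split the same stretch into 4 peaks with fold enrichments of 3.93, 5.67, 11.95 and 8.06 and pileups of 9, 21, 27 and 26, which together covered 6603 bp. The highest of them, 69453940 to 69455741, had its summit at 69455122, away from the siNC summit at 69456526, and the peak whose summit did match it, at 69456510, was the one at 8.06.

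Scaled to 1000000 tags after duplicate removal, the pileup of the highest peak there was 3.98 in siNC (exact 95% Poisson interval 2.83 to 5.44) and 2.50 in siHSF1 (1.65 to 3.64). These intervals cover counting error only and overlap. The log2 ratio of scaled pileup, siHSF1 over siNC, was -0.67 in this region. Over all regions shared by both lists the median was -0.53, and 35.3% of them were lower than this region. Taken also per bp of fragment length, the log2 ratio was 0.093, against a median of 0.24 over all shared regions.

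At the right-hand end of the first cluster, peaks were also shorter and lower in unscaled pileup in siHSF1. The siNC peak 69468924 to 69470592 was 1669 bp long with a pileup of 16 and a fold enrichment of 6.31. In siHSF1 that stretch held a pair of 194 bp peaks with pileups of 11 and 9 and fold enrichments of 4.84 and 4.04. The log2 ratio of scaled pileup, siHSF1 over siNC, was -0.68 in this region. Over all shared regions the median was -0.53, and 34.5% were lower than this region. Taken also per bp of fragment length, the log2 ratio was 0.082, against a median of 0.24. A siHSF1 peak without a siNC partner lay just below, 69467870 to 69468425, with a pileup of 14 and a fold enrichment of 5.97, the highest among the regions that only siHSF1 held. The other 5 siNC peaks of the cluster were all without a siHSF1 partner and were low, with fold enrichments from 3.33 to 4.59.

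The second cluster was led in both lists by a peak over the same stretch. In siNC it ran from 69502023 to 69505729 (3707 bp) with a pileup of 33 and a fold enrichment of 11.3, and 95.2% of siNC peaks were lower. In siHSF1 it ran from 69501075 to 69505793 (4719 bp) with a pileup of 30 and a fold enrichment of 14.1, and 98.6% of siHSF1 peaks were lower. The siHSF1 peak was thus longer and more enriched, with a lower unscaled pileup, and its unscaled local background was 1.19 against 2.01 in siNC. As multiples of the genome-wide floor of each list, these backgrounds were 1.70 in siHSF1 and 1.86 in siNC.

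The scaled pileup of that peak was 3.37 in siNC (2.32 to 4.73) and 2.78 in siHSF1 (1.88 to 3.97), again with overlapping intervals. Its fold enrichment was higher in siHSF1 by 0.32 on the log2 scale while its scaled pileup had a log2 ratio, siHSF1 over siNC, of -0.28. The median log2 ratio of scaled pileup over all regions shared by both lists was -0.53, so this region stood 0.25 above the middle one. Taken also per bp of fragment length, its pileup was higher in siHSF1, with a log2 ratio of 0.49 against a median of 0.24 over all shared regions.

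Below the tall peak, siNC had 69487827 to 69488245 (pileup 11, fold enrichment 3.95), just outside the stretch from 69489903, and 69489725 to 69490024 (14, 4.94). The siHSF1 list had 69489903 to 69490077 (17, 4.64) and 69490672 to 69490875 (14, 5.14). Only the middle pair overlapped, so each list had 1 small peak here that the other lacked.

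Between the tall peak and the right-hand group, siHSF1 held 3 peaks with no siNC partner: 69506753 to 69506944 with a pileup of 7 and a fold enrichment of 3.49, 69509625 to 69509956 with 10 and 4.50, and 69514179 to 69514410 with 10 and 3.77. They were short, from 192 to 332 bp, and their pileups lay near the median of 8 over all siHSF1 regions without a partner. They lay in a stretch that held no peak in siNC and covered a small part of it. In fold enrichment, 3.20%, 21.4% and 5.94% of all siHSF1 peaks were lower than these peaks, in the order given.

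In the right-hand group, the siNC peak 69515003 to 69515878 (pileup 17, fold enrichment 3.70) met the siHSF1 peak 69515515 to 69515896 (12, 4.08). A pair of siNC peaks, 69516176 to 69516830 (11, 4.03) and 69517137 to 69518036 (15, 3.29), met 1 longer siHSF1 peak, 69516017 to 69517581 (13, 5.54). In both of these regions the unscaled siHSF1 pileup was below the tallest siNC pileup and the siHSF1 fold enrichment was above the highest siNC value.

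Farther on, 69518917 to 69519339 in siNC (17, 4.65) met 69518731 to 69519500 in siHSF1 (13, 3.61), and 69520077 to 69520468 (13, 3.62) met 69520219 to 69520624 (10, 4.38). The siNC peak 69520753 to 69522204 (18, 5.82) was matched by a pair of siHSF1 peaks, 69520896 to 69521593 (15, 4.13) and 69521922 to 69522135 (10, 4.11). At the end of the cluster the lists alternated without overlap: siHSF1 at 69523142 to 69523450 (9, 4.24), siNC at 69523612 to 69524017 (18, 4.28) and siHSF1 at 69524125 to 69524308 (10, 4.69). Unscaled pileups of the 5 shared regions from 69515003 on were lower in siHSF1, and their fold enrichments went either way. Per tag and per bp of fragment length, all 9 shared regions of the locus were higher in siHSF1 (log2 ratios from 0.082 to 0.90). Their median was 0.24, and the median over all shared regions of the genome was also 0.24. The middle shared region of the genome was thus higher in siHSF1 too. The share of all shared regions that were higher was not counted.

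Peaks that shared at least 1 bp were merged, which gave 23 regions at the locus. Of these, 9 (39.1%) held a peak of both lists, against 38.7% of 51253 regions in all. A further 7 (30.4%) held a siNC peak only, against 38.7% of all regions, and 7 (30.4%) a siHSF1 peak only, against 22.6%. The split was uneven between the clusters: the first had 2 shared, 5 siNC-only and 1 siHSF1-only regions, and the second had 7, 2 and 6. Regions of a single list had fold enrichments from 3.33 to 4.59 in siNC (median 3.95) and from 3.49 to 5.97 in siHSF1 (median 4.50).

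None of the 9 shared regions differed by 1.5 times or more in fold enrichment in either direction, a size that 21.3% of 19826 shared regions reached. Fold enrichment was higher in siHSF1 in 4 of the 9, against 49.6% of all shared regions. The log2 ratio, siHSF1 over siNC, ran from -0.50 to 0.46 with a median of -0.089. The median over all shared regions was -0.0051. Shared regions of this locus thus lay on both sides of no difference, as those of the genome did.

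By cluster the median was -0.29 over the 2 shared regions of the first and 0.14 over the 7 of the second. Scaled pileups gave a median of -0.52 at the locus and -0.53 over all shared regions. The plot of shared regions shows both clusters inside the lines that mark 1.5 times.

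**Figure D3:**
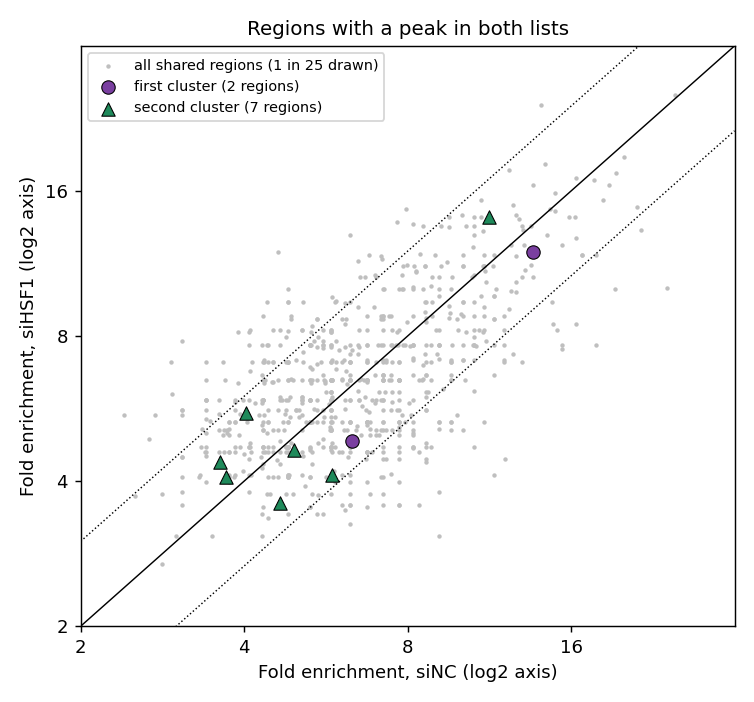
Fold enrichment in siNC (x axis, log2) and siHSF1 (y axis, log2) of regions with a peak in both lists, with the highest peak of each list standing for a region, 1 in 25 of all regions in grey, a solid line at equal values and dotted lines at 1.5 times. All 9 regions of the locus lie between the dotted lines, and the tall region of each cluster stands apart at the upper right.

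When peaks were paired by summits no more than 100 bp apart, a pairing chosen after the data were seen, the locus held 5 pairs and fold enrichment was lower in siHSF1 in all 5. The log2 ratios were -0.76 and -0.64 in the first cluster and -0.089, -0.37 and -0.50 in the second, with a median of -0.50, against -0.032 over 8016 pairs in all. From 7.71% to 45.0% of all pairs had a lower ratio than a pair of the locus. The median over all pairs was itself negative, and the share of all pairs lower in siHSF1 was not counted. In the first cluster this pairing took the siHSF1 peaks at 8.06 and 4.04, not the higher ones at 11.95 and 4.84 in the same regions. The tall region of the second cluster is not among these pairs, because its summits stood at 69503703 and 69503201.

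Stitching nearby peaks at the distance the study used for super-enhancers, which lies between 5 and 20 kb, gave 2 stitched regions at the locus in each list. The signal of a stitched region is the sum over its peaks of scaled pileup at the summit, above background, times peak length. It thus gives a whole peak the height of its summit. The super-enhancer calls of the study were not used here. The cutoff is the point where the curve of ranked signals reaches a slope of 1. Above it lay 666 of 14420 stitched regions in siNC (4.62%) and 642 of 13377 in siHSF1 (4.80%).

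The first cluster was above the cutoff in both lists. Its signal was 37765 in siNC, rank 338 and 1.57 times the cutoff of 23983, and 14064 in siHSF1, rank 372 and 1.43 times the cutoff of 9802. The log2 ratio of -1.43 was close to the median of -1.35 over 10548 stitched siNC regions with a siHSF1 partner.

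The second cluster was below the cutoff in siNC and above it in siHSF1. In siNC its 10 peaks covered 26.3% of 36.2 kb and gave a signal of 19230, rank 892 and 0.802 times the cutoff. In siHSF1 its 14 peaks covered 30.2% of 34.4 kb and gave 17958, rank 229 and 1.83 times the cutoff. The signal itself was thus slightly lower in siHSF1 (log2 ratio -0.099, but 0.66 when signals are taken per bp of fragment length), while the cutoff was lower by more. Relative to the median stitched region the cluster stood 1.25 higher on the log2 scale, and 91.5% of stitched regions had a lower ratio. With stitching within 20 kb the clusters joined into 1 stitched region in each list, and it lay above the cutoff in both (2.31 times in siNC and 2.75 times in siHSF1). This contrast is the one the locus was chosen on, so these values describe it and test nothing.

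**Figure D4:**
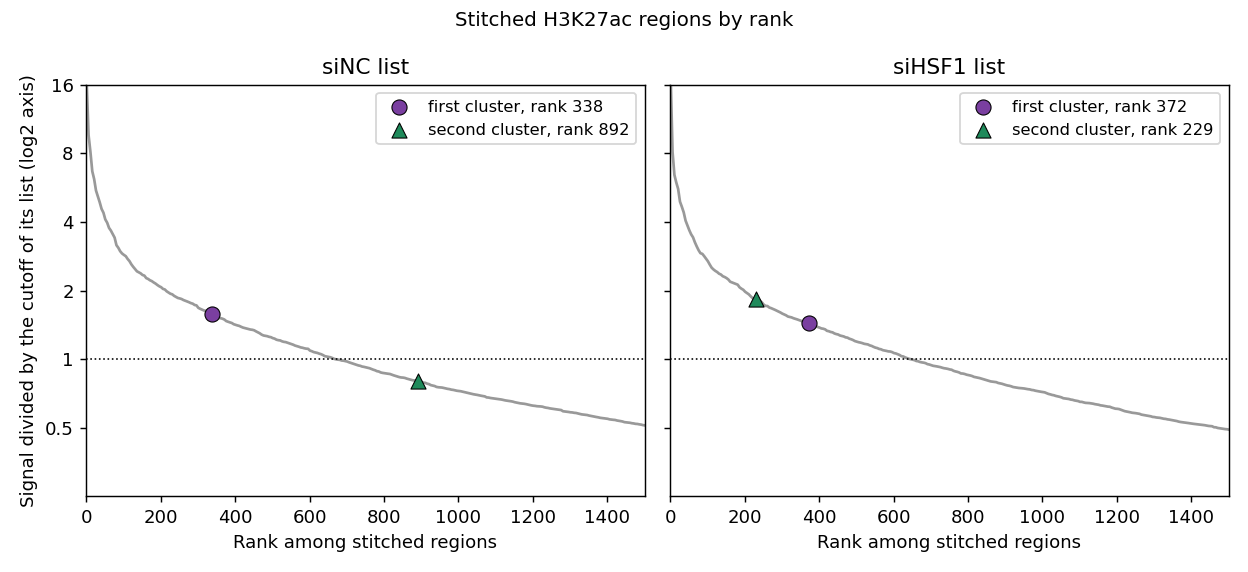
Signal of stitched H3K27ac regions divided by the cutoff of their list (y axis, log2) against rank (x axis, upper ranks only), siNC on the left and siHSF1 on the right, with the cutoff as a dotted line. The first cluster keeps a similar place (ranks 338 and 372), and the second lies below the line in siNC (rank 892) and above it in siHSF1 (rank 229).

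The local background, recovered from pileup and fold enrichment, was high at this locus in both conditions. Its median over the 17 siNC peaks was 2.04, which is 1.89 times the genome-wide floor and above 91.6% of the list, and over the 21 siHSF1 peaks it was 1.53, which is 2.18 times the floor and above 90.4%. All 17 and all 21 peaks lay above the median background of their list, which was 1.07 times the floor in siNC and 1.2 times in siHSF1. A higher background lowers fold enrichment for the same pileup. The part of DNA copy number in it was not tested.

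The window of equal length just below the locus was richer in H3K27ac, with 24 siNC and 40 siHSF1 peaks that covered 54.8 kb and 38.7 kb (ratio 0.708), and its background medians were also high, at 2.37 and 1.67. The window just above held no peak in either list. The peaks nearest to the interval on the lower side ended at 69315240 in siNC (pileup 20, fold enrichment 5.39) and 69317289 in siHSF1 (10, 4.11). On the upper side the next peaks began at 70049313 in siNC (12, 4.43) and 70049440 in siHSF1 (11, 6.52). The clusters were therefore flanked by long stretches without a peak in both conditions.

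HSF1 CUT&Tag peaks were also counted at the starts of listed genes. The lists held genes that work with cyclin D1 and FGF19, and 8 further genes of the chromosome band that holds the locus. A peak within 1 kb of the start was found for 15 of 50 listed genes (30.0%, 95% Wilson interval 19.1% to 43.8%), against 21.9% of 20007 protein-coding genes, a share inside that interval. No listed gene had an H3K27ac CUT&Tag peak there.

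In the cyclin D, CDK and RB pathway, 7 of 21 genes had an HSF1 peak at the start (33.3%, 17.2% to 54.6%). They were CCNE2, a cyclin that acts after cyclin D1 (fold enrichment 7.87), and the transcription factors E2F3 (7.28) and E2F1 (5.99), which RB restrains. With them were the INK4 family genes CDKN2D (7.24), CDKN2C (7.14), CDKN2B (6.57) and CDKN2A (5.85). Each gene was represented by its outermost annotated start, and the CDKN2A peak was not assigned to a transcript of that gene. The other 14 genes had none, among them CCND1 itself, CCND2, CCND3, CDK4, CDK6 and RB1 and the further CDK inhibitors CDKN1A, CDKN1B and CDKN1C. The share of the list with a peak was not distinguishable from that of all protein-coding genes, which lies inside its interval.

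Of 21 genes of FGF19 and FGF4 signalling, 5 had an HSF1 peak at the start (23.8%, 10.6% to 45.1%), close to the share of all genes. FGFR4, the receptor for FGF19 on hepatocytes, had the highest of them, with a pileup of 46 and a fold enrichment of 10.6, above 94.1% of HSF1 peaks, and its summit lay 255 bp inside the gene. GRB2, the adaptor that links FGF receptors to RAS, stood at 7.92, the feedback inhibitor SPRY2 at 7.02, NR0B2, the bile acid responsive repressor of CYP7A1, at 5.56, and the ERK phosphatase DUSP6 at 4.81. The ligand genes FGF19, FGF4, FGF3, FGF21 and FGF23 and the co-receptor gene KLB had none.

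Among 8 further genes of band 11q13, 3 had an HSF1 peak at the start (37.5%, 13.7% to 69.4%). The share of all protein-coding genes, 21.9%, lies inside that interval. The 3 were TPCN2, a lysosomal cation channel (8.20), PPFIA1, a liprin of cell adhesion sites (6.98), and SHANK2, a scaffold protein of synapses (6.07). LTO1, whose intron holds the HSF1 peak past CCND1, had none at its own start.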

How the data were processed

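The authors deposited 4 MACS2 peak lists used here, each from 1 library. They called ChIP-seq peaks with MACS 2.1.1.20160309 against input at a q-value of 0.05 (hg19 by the headers, hg38 by the methods), and CUT&Tag peaks on hg38 with MACS 2.1.4 at a p-value of 1e-05 and with no control library, with a shift of -100 bp and an extension of 200 bp. The ChIP-seq lists held 228 and 234 peaks beyond the ends of hg38 chromosomes, and the CUT&Tag lists 0. In the deposited lists, pileup is an unscaled signal in extended tags and fold enrichment a ratio to local background. The -log10 q-values deposited beside them served only as a filter, and for CUT&Tag the headers state that none were computed although the column is filled. The -log10 p-values are the authors' output of the same caller.

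After duplicate removal 9795121 (siNC) and 10793650 (siHSF1) tags remained, with 10136239 and 11251156 in the inputs. The tall peaks rest on 26 to 39 tags, so the Poisson intervals are wide.

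Peaks were merged by at least 1 shared bp. The highest fold enrichment and the highest pileup of each list stood for a region, also where they came from different peaks. Stitching used the distance of the study. The background is (pileup plus 1) over fold enrichment, minus 1. The named items were CCND1, FGF19 and FGF4, genes in their windows of 50 kb, listed genes with a CUT&Tag peak within 1 kb of the start, all peaks of the stretch 69489903 to 69524308 and the 3 highest peaks of each list outside it. Members, lists and rules were chosen with earlier results of these data known. The 6 RNA-seq samples were not used here. The tools were numpy 2.4.6, scipy 1.17.1, pandas 2.3.3 and matplotlib 3.10.9 under Python 3.11.15, and the scripts were tested on simulated data, where 8 of 8 planted values were recovered.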

Additional observations from a re-analysis of the deposited data

How the results depend on the processing

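Over 11 results and 47 alternatives, 33 values stayed near the one reported and 14 moved. Some of the 33 could not move. Dividing all signals of a list by its fragment length leaves ranks unchanged. Narrower windows or a stricter q-value cannot add H3K27ac CUT&Tag peaks. The median log2 ratio of fold enrichment over shared regions, -0.089, became -0.52 with scaled pileup, where all shared regions also shift by a median of -0.53, -0.50 with summit pairs and 0.24 per tag and bp of fragment length, where the genome median was also 0.24. With only peaks of -log10 q 5 or more, the locus held 3 shared, 4 siNC-only and 3 siHSF1-only regions, and with a fold enrichment of at least 5 it held 2, 2 and 3. Merging peaks within 500 bp left 4 siHSF1-only regions. The log2 signal ratio of the second cluster, -0.099, became 0.66 per bp of fragment length and 0.45 with fold enrichment times length, so its sign rests on the measure. Its siNC rank of 892 became 1440 with the stricter q-value, 1536 with stitching within 5 kb, both of which split the cluster in siNC, and 178 with stitching within 20 kb, which joins it to the first cluster and moves its siHSF1 rank from 229 to 87. In siNC the signal over the cutoff was 2.31 there and 0.507 to 0.845 under the other alternatives, and in siHSF1 it was 1.13 to 2.75 under all of them. The 2 HSF1 peaks near CCND1 and FGF19 held with windows of 10 kb and 100 kb and with the stricter q-value. The absence of H3K27ac CUT&Tag peaks held with windows of 100 kb. Windows of 10 kb and the stricter q-value could only repeat that absence. No paired analysis was possible because each condition has 1 library. Pileups of 7 to 39 tags, different fragment lengths and the lack of replicates limit every ChIP-seq comparison, and fragment length and siRNA cannot be told apart.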
